A study of Mus musculus with 23 samples.

Results

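Adenylyl cyclases are the enzymes that make cyclic AMP (cAMP), and the 7 genes described here, *Adcy1*, *Adcy3*, *Adcy5*, *Adcy6*, *Adcy7*, *Adcy8* and *Adcy9*, encode membrane-bound forms of the enzyme. They were taken as the rows of the deposited TPM table (a transcript level that is scaled for gene length and for library size) whose Ensembl identifier maps to these symbols, and all 7 of 7 were found among 20599 genes. The table holds 9 poly(A) RNA sequencing libraries of β-TC6 cells, a mouse insulinoma line that secretes insulin. There were 3 libraries each of *Bmal1*-/- cells, in which CRISPR-Cas9 removed exon 8 of *Bmal1*, of *Clock*-/- cells, in which it removed exons 6 to 7 of *Clock*, and of WT cells. The knockout lines were grown from single drug-selected colonies, the libraries came from separate wells of cells at passages 5 to 15, and the labels name no treatment, so a difference between lines cannot be told apart from one between clones, and the p-values measure the spread between wells. BMAL1 and CLOCK pair to drive circadian transcription from E-box sites, and the comparison asks how loss of either factor moved the genes of this family. THRAP3, an RNA-binding protein of the splicing machinery, was mapped on chromatin by ChIP-seq in 2 *Bmal1*-/- and 2 WT samples, which give a second readout at the same genes.

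In β cells, glucagon-like peptide and other hormones act on receptors coupled to the stimulatory G protein, which switches on adenylyl cyclase, and the cAMP formed acts through protein kinase A and EPAC to increase insulin release. The members differ in what else controls them. The products of *Adcy1*, *Adcy3* and *Adcy8* are stimulated by calcium and calmodulin, and those of *Adcy5* and *Adcy6* are inhibited by calcium. That of *Adcy7* is stimulated by G protein beta and gamma subunits, and that of *Adcy9* responds poorly to forskolin.

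*Adcy1* lies on chromosome 11 (chr11:7063489-7178506, plus strand), *Adcy3* on chromosome 12 (chr12:4133103-4213525, plus strand), *Adcy8* on chromosome 15 (chr15:64697084-64922296, minus strand) and *Adcy5* on chromosome 16 (chr16:35154877-35305738, plus strand). *Adcy6* lies on chromosome 15 (chr15:98589973-98610076, minus strand), *Adcy9* on chromosome 16 (chr16:4287529-4420498, minus strand) and *Adcy7* on chromosome 8 (chr8:88272403-88329962, plus strand). All positions are on mm10 (GRCm38). The annotation places other genes over 5 of the 7. The protein-coding gene *Cenpo*, at a mean of 7.05 TPM, overlaps *Adcy3* on the opposite strand, and the processed pseudogene *Gm6142*, at a mean of 1.94 TPM, overlaps *Adcy9* on the same strand. Whether counting used the strand is not given in the sources used here, so reads of *Adcy3* and *Adcy9* may be shared with these genes. The overlapping genes of *Adcy5*, *Adcy6* and *Adcy8* were not analysed here.

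The promoters of 3 members are printed because *Adcy1* and *Adcy9* had the most similar pattern over the libraries within the family and *Adcy3* had the reverse one. Each runs from 250 bases before to 50 bases after a RefSeq start on the GRCm38.p6 build, 5′ to 3′ on the gene's strand, and capitals mark a match to CACGTG, the E-box bound by CLOCK and BMAL1. The windows are chr11:7063183-7063482 for *Adcy1*, chr12:4133147-4133446 for the first of 2 starts of *Adcy3* and chr16:4420449-4420748 on the minus strand for *Adcy9*.
Adcy1: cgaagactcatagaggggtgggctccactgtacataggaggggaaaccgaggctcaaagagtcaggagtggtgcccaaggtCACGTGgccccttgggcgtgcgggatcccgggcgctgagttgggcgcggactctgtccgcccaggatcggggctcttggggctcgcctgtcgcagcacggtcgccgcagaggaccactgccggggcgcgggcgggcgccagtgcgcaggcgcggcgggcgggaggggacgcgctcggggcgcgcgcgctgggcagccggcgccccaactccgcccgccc
Adcy3: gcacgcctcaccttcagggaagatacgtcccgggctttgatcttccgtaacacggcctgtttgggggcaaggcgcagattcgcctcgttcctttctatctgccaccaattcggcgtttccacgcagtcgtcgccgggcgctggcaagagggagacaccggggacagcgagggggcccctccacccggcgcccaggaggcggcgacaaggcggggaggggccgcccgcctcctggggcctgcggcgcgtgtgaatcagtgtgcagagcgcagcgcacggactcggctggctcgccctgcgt
Adcy9: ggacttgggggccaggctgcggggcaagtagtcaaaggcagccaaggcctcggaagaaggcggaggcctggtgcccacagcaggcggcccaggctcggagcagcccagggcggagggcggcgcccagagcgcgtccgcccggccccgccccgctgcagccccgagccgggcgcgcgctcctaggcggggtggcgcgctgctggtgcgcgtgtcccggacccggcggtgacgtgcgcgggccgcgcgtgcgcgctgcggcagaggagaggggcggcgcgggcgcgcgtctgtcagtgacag
RefSeq gave 8 promoters for 5 members, and *Adcy6* and *Adcy8* had no entry. The *Adcy1* promoter held 1 CACGTG, which begins 169 bases before the start, and the other 7 held none. Across 32851 promoters of the table, 7.15% held this hexamer on either strand. CACGTT, a near relative of the E-box, was in none of the 8 promoters and in 4.68% of all, and TGACGTCA, the full cAMP response element, was in none of the 8 and in 1.79% of all. Both strands were searched, no matches overlapped since the 8 promoters held 1 in all, and a match is a description of the letters only.

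Of the 7 members, 6 passed the filter of at least 1 TPM in at least 3 of the 9 libraries, and *Adcy5* did not. Each of the 6 reached 1 TPM in every library of at least 2 of the 3 lines. A gene is said to have risen or fallen at an adjusted p under 0.01 in a limma fit of log2(TPM + 1) over all 15031 genes that passed the filter. In *Bmal1*-/- cells, 2 of 6 rose and 1 fell, where 39.4% of all genes tested were called, 18.4% up and 21.0% down. In *Clock*-/- cells, 1 of 6 rose and 3 fell, where 23.9% were called, 9.50% up and 14.4% down. Between *Bmal1*-/- and *Clock*-/- cells, 5 of 6 differed, where 44.6% were called, and 4 were higher and 1 lower in *Bmal1*-/- cells, where these shares were 22.8% and 21.8% of all genes tested. Calls with an absolute log2 fold change above 1 were 3, 3 and 4 for these comparisons, against 11.8%, 7.40% and 14.5% of all genes tested. With 6 genes, these counts describe the members and are not set against the backgrounds as a test.

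**Figure D1:**
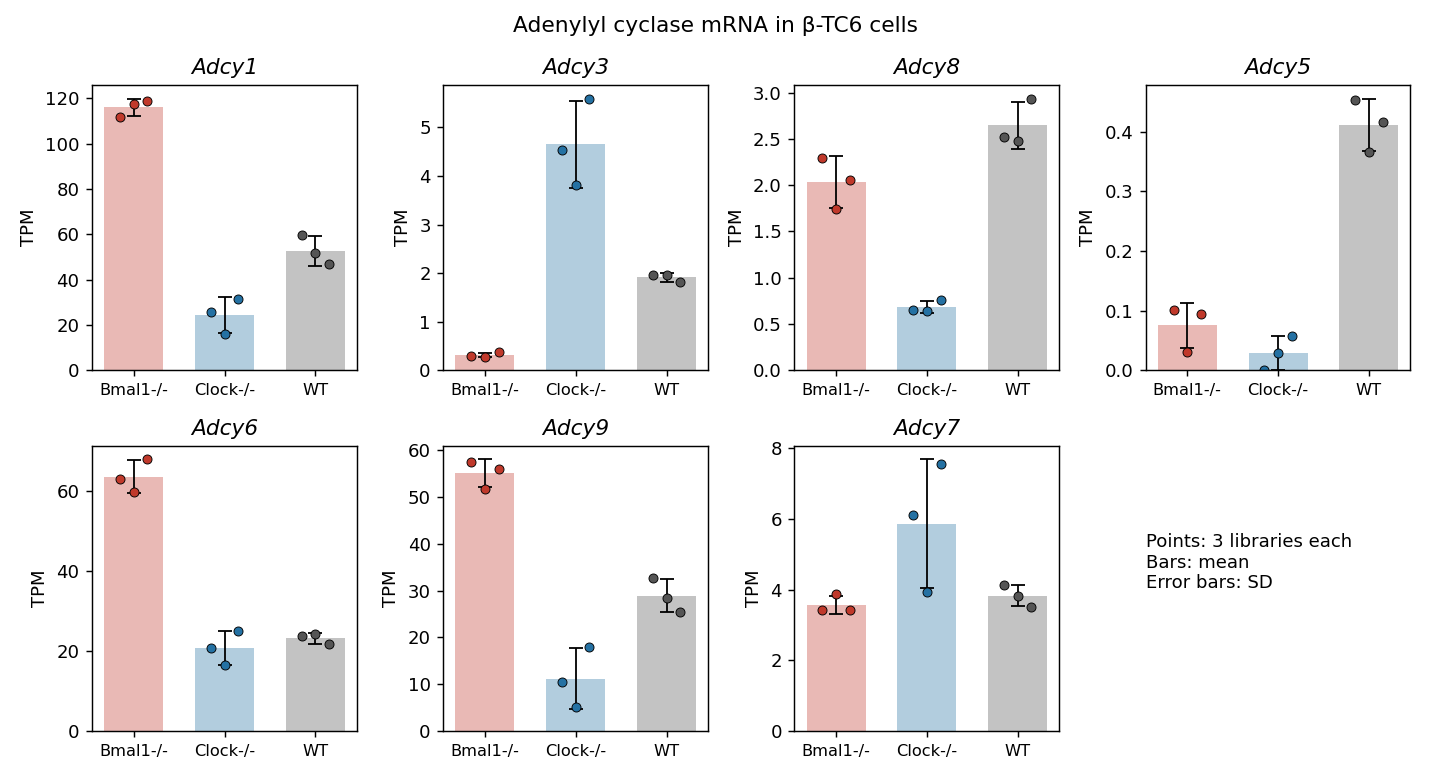
TPM of the 7 adenylyl cyclase genes in *Bmal1*-/-, *Clock*-/- and WT β-TC6 cells, with 1 point per library, bars at the mean of 3 libraries and error bars of 1 SD. *Adcy1* and *Adcy9* are high in *Bmal1*-/- cells and low in *Clock*-/- cells, *Adcy3* shows the reverse, *Adcy6* is high in *Bmal1*-/- cells alone, and *Adcy8* is low in *Clock*-/- cells.

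Among the calcium-stimulated members, *Adcy1*, a form best known from neurons, was the most abundant. Its level was 112, 118 and 119 TPM in *Bmal1*-/- cells, 25.6, 16.0 and 31.6 TPM in *Clock*-/- cells and 59.5, 51.6 and 46.7 TPM in WT cells. The 3 lines did not overlap, with *Bmal1*-/- cells above and *Clock*-/- cells below WT. The log2 fold change was 1.13 in *Bmal1*-/- cells (standard error 0.20, adjusted p = 9.4e-04) and -1.12 in *Clock*-/- cells (standard error 0.20, adjusted p = 0.00166). *Adcy1* rose in one knockout and fell in the other, and the difference between *Bmal1*-/- and *Clock*-/- cells was itself called at 2.26 on the log2 scale (adjusted p = 1.0e-05).

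*Adcy3*, the form that carries olfactory signals and that sits in primary cilia, moved the other way. It was at 0.293, 0.280 and 0.369 TPM in *Bmal1*-/- cells, 4.54, 3.81 and 5.59 TPM in *Clock*-/- cells and 1.96, 1.97 and 1.81 TPM in WT cells. No library of one line reached the range of another. The log2 fold change was -1.15 in *Bmal1*-/- cells (standard error 0.14, adjusted p = 1.1e-04) and 0.94 in *Clock*-/- cells (standard error 0.14, adjusted p = 7.0e-04), and *Bmal1*-/- and *Clock*-/- cells differed by -2.09 (adjusted p = 2.2e-06). At this low level the added 1 shrinks the fold change: the ratio of mean TPM was 0.164 for *Bmal1*-/- over WT and 2.43 for *Clock*-/- over WT. The TPM steps show whole reads, and those of *Adcy3* numbered 13, 16 and 14 in *Bmal1*-/- libraries, 174, 118 and 173 in *Clock*-/- libraries and 77, 72 and 62 in WT libraries. The summed level of markers of other islet endocrine cells was low in *Bmal1*-/- and high in *Clock*-/- cells, as that of *Adcy3* was, at 101 to 112 TPM in *Bmal1*-/- cells, 1516 to 1691 TPM in *Clock*-/- cells and 569 to 587 TPM in WT cells. Of the 8 genes of that list, 6 were in the table and 3 reached a mean of 1 TPM, the hormone genes *Gcg* and *Sst* and the transcription factor gene *Irx2*, while *Ghrl* stayed below 1 TPM in every library. *Gcg* and *Sst* made up most of the sum in all 3 lines, and *Irx2* went against *Adcy3* in *Bmal1*-/- cells, with a mean of 33.5 TPM there, 14.9 TPM in *Clock*-/- cells and 11.5 TPM in WT cells (log2 fold change 1.47 in *Bmal1*-/- cells, adjusted p = 2.6e-06). Their part in the *Adcy3* result was not tested.

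*Adcy8*, another calcium-stimulated form, studied in β cells and neurons, fell in *Clock*-/- cells. Its level was 2.30, 1.74 and 2.06 TPM in *Bmal1*-/- cells, 0.648, 0.642 and 0.763 TPM in *Clock*-/- cells and 2.52, 2.48 and 2.94 TPM in WT cells. The *Clock*-/- libraries lay below all others, and the *Bmal1*-/- libraries lay just below those of WT. The log2 fold change of TPM + 1 was -1.11 in *Clock*-/- cells (standard error 0.13, adjusted p = 1.5e-04). The ratio of mean TPM, which the added 1 does not shrink, was 0.259 there. In *Bmal1*-/- cells the log2 fold change was -0.27 (95% interval -0.56 to 0.03, adjusted p = 0.114). The reads behind these values numbered 63 to 82 in *Bmal1*-/- libraries, 16 to 20 in *Clock*-/- libraries and 73 to 81 in WT libraries. *Bmal1*-/- and *Clock*-/- cells differed by 0.85 (adjusted p = 4.1e-04).

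Of the calcium-inhibited members, one was abundant and the other close to 0. *Adcy6*, a broadly expressed form, was at 63.0, 59.6 and 67.9 TPM in *Bmal1*-/- cells, 20.6, 16.4 and 25.0 TPM in *Clock*-/- cells and 23.7, 24.2 and 21.6 TPM in WT cells. The *Bmal1*-/- libraries stood apart from the rest, and *Clock*-/- and WT libraries overlapped. The log2 fold change was 1.42 in *Bmal1*-/- cells (standard error 0.13, adjusted p = 1.7e-05), the largest rise of the family, and -0.18 in *Clock*-/- cells (95% interval -0.47 to 0.12, adjusted p = 0.328). *Bmal1*-/- and *Clock*-/- cells differed by 1.59 (adjusted p = 7.1e-06).

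*Adcy5*, the close relative of *Adcy6* and the chief cyclase of the striatum, was near the limit of detection. It was at 0.101, 0.0312 and 0.0939 TPM in *Bmal1*-/- cells, at 0, 0.0288 and 0.0577 TPM in *Clock*-/- cells and at 0.453, 0.365 and 0.417 TPM in WT cells. These levels are 5, 2 and 4 reads in *Bmal1*-/- libraries, 0, 1 and 2 reads in *Clock*-/- libraries and 20, 15 and 16 reads in WT libraries. Every knockout library was below every WT library. Pooled per line and scaled for depth, the reads of *Bmal1*-/- over WT had a ratio of 0.171 (exact 95% interval 0.0802 to 0.331) and those of *Clock*-/- over WT a ratio of 0.0647 (0.0129 to 0.200), intervals that cover counting error only. In a fit with no filter on low values, the log2 fold change of TPM + 1 was -0.39 in *Bmal1*-/- cells (adjusted p = 0.0012) and -0.46 in *Clock*-/- cells (adjusted p = 8.8e-04). *Adcy5* was among the second messenger genes that the study chose on these same libraries, so its direction is not independent evidence.

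*Adcy9*, which is expressed in many tissues, followed the pattern of *Adcy1* with a wider spread. It was at 57.5, 51.8 and 56.1 TPM in *Bmal1*-/- cells, 10.5, 5.13 and 18.0 TPM in *Clock*-/- cells and 32.7, 28.5 and 25.6 TPM in WT cells. The 3 lines did not overlap, and the *Clock*-/- libraries spread over more than 3-fold. The log2 fold change was -1.44 in *Clock*-/- cells (standard error 0.32, adjusted p = 0.00595). In *Bmal1*-/- cells it was 0.91 (standard error 0.32, 95% interval 0.20 to 1.63), which missed the threshold at an adjusted p of 0.0345. The *Clock*-/- libraries had the widest spread, and the *Bmal1*-/- comparison passed at an adjusted p of 9.0e-05 when only *Bmal1*-/- and WT libraries were fitted, of 0.0013 without *Clock*-/- replicate 2 and of 0.00343 without *Clock*-/- replicate 3. The call in *Clock*-/- cells remained in 2 of the 9 fits that left out 1 library, those without *Clock*-/- replicate 2 or 3, while the difference of 2.35 between *Bmal1*-/- and *Clock*-/- cells (adjusted p = 1.7e-04) was called in all 9.

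*Adcy7*, a form best known from blood cells, did not pass the test in either knockout. It was at 3.43, 3.87 and 3.42 TPM in *Bmal1*-/- cells, 6.10, 3.93 and 7.56 TPM in *Clock*-/- cells and 4.12, 3.83 and 3.52 TPM in WT cells. The *Bmal1*-/- and WT ranges overlapped, and 2 of the 3 *Clock*-/- libraries were above all WT libraries. The log2 fold change was -0.08 in *Bmal1*-/- cells (95% interval -0.49 to 0.34, adjusted p = 0.75) and 0.47 in *Clock*-/- cells (95% interval 0.06 to 0.89, adjusted p = 0.0705). Without *Clock*-/- replicate 2 it was 0.69 in *Clock*-/- cells and passed (adjusted p = 0.00296), and the difference between *Bmal1*-/- and *Clock*-/- cells, -0.55 with all libraries (adjusted p = 0.0275), was -0.77 and passed as well (adjusted p = 8.6e-04).

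*Clock*-/- replicate 2 was the lowest *Clock*-/- library for 6 of the 7 members, all but *Adcy5*. The share of all genes tested that were lowest in it was not computed, but it was low over genes at large. Its median ratio to the geometric mean of the 9 libraries was 0.909, against 1.00 and 1.06 in *Clock*-/- replicates 1 and 3. The main fit did not scale for this. Its relative depth, read from the TPM steps, was 0.786 of WT replicate 1, the same to 3 digits as that of *Clock*-/- replicate 3, and it listed 1010 genes at 0 against 911 and 791 in the other *Clock*-/- libraries. The fits without it are given with *Adcy9* and *Adcy7*. In the limma fit without it, *Adcy1* was at -0.86 in *Clock*-/- cells, short of an absolute log2 fold change of 1, and stayed called (adjusted p = 4.4e-04). What set this library apart was not tested.

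**Figure D2:**
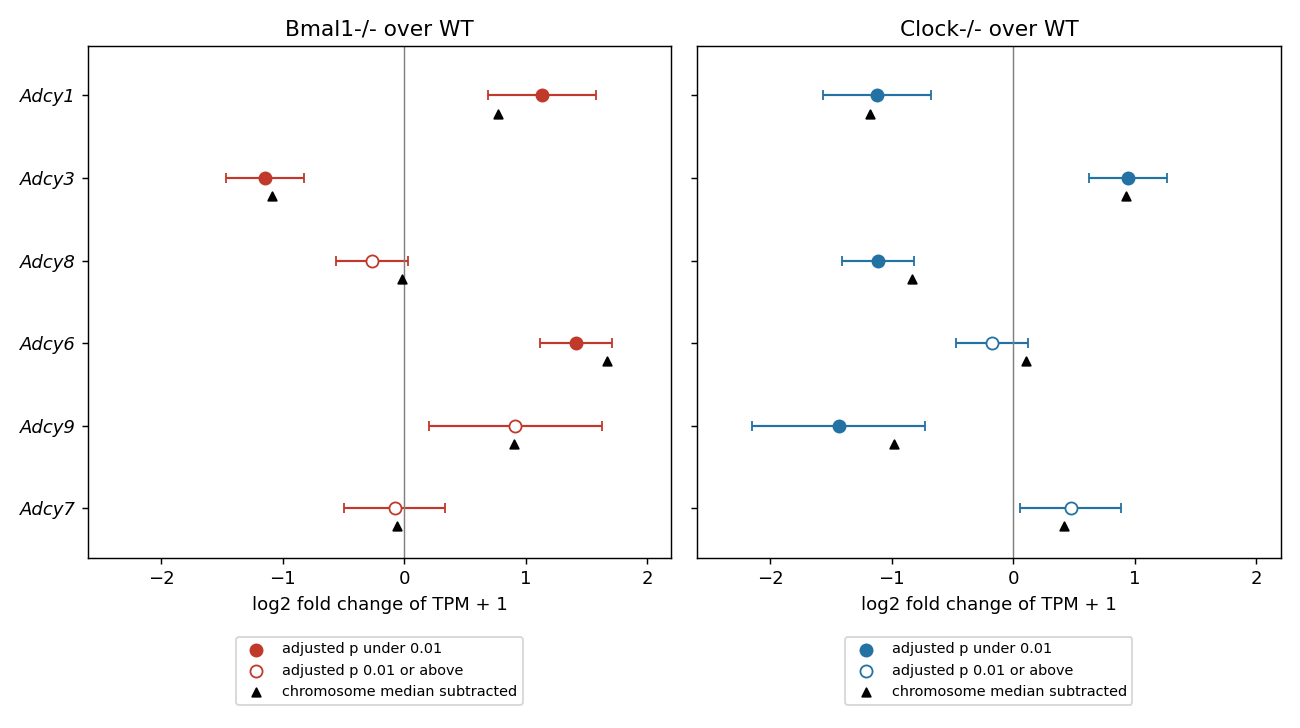
Log2 fold change of TPM + 1 for the 6 members tested, *Bmal1*-/- over WT at left and *Clock*-/- over WT at right, with bars of the 95% interval of the limma fit, filled points at an adjusted p under 0.01 and triangles after subtraction of the median change of the member's chromosome. *Adcy1* is at 1.13 and -1.12, *Adcy3* at -1.15 and 0.94, and the triangle of *Adcy9* in *Clock*-/- cells sits at -0.98 beside its point at -1.44.

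Median changes of whole chromosomes differed between the lines, and some of these chromosomes hold members. Whether these shifts had a part in the changes of members was not tested. The median log2 fold change of the 427 genes tested on chromosome 16, which holds *Adcy9*, was -0.45 in *Clock*-/- cells and 0.01 in *Bmal1*-/- cells. After this median was subtracted, *Adcy9* was at -0.98 in *Clock*-/- cells and was no longer called (adjusted p = 0.0202), and with the median of genes within 10 Mb subtracted it was at -1.01 (adjusted p = 0.0194). On chromosome 11, which holds *Adcy1*, the median of 1201 genes was 0.36 in *Bmal1*-/- cells and 0.05 in *Clock*-/- cells. *Adcy1* stayed called after subtraction, at 0.78 in *Bmal1*-/- cells (adjusted p = 0.00266) and -1.18 in *Clock*-/- cells (adjusted p = 4.2e-04). The median of genes within 10 Mb of it was 0.12 in *Bmal1*-/- cells and -0.32 in *Clock*-/- cells. With that subtracted, *Adcy1* was at 1.02 (adjusted p = 4.9e-04) and -0.80 (adjusted p = 0.0035), and both calls remained. On chromosome 15, which holds *Adcy6* and *Adcy8*, the median of 547 genes was -0.25 in *Bmal1*-/- cells and -0.28 in *Clock*-/- cells. *Adcy6* then stood at 1.67 in *Bmal1*-/- cells and *Adcy8* at -0.83 in *Clock*-/- cells (adjusted p = 7.8e-04), and both stayed called. The median within 10 Mb of *Adcy6* was 0.005 in *Bmal1*-/- cells, and with it subtracted *Adcy6* was at 1.41 (adjusted p = 1.3e-06). That of *Adcy8* was -0.32 in *Clock*-/- cells, and with it subtracted *Adcy8* was at -0.79 (adjusted p = 0.0020). The medians of chromosomes 12 and 8, which hold *Adcy3* and *Adcy7*, lay between -0.06 and 0.06, and *Adcy3* kept both of its calls.

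Since TPM is per length, the levels of the members can be ordered within a line. In *Bmal1*-/- cells the order by mean TPM was *Adcy1*, *Adcy6*, *Adcy9*, *Adcy7*, *Adcy8*, *Adcy3* and *Adcy5*, in *Clock*-/- cells it was *Adcy1*, *Adcy6*, *Adcy9*, *Adcy7*, *Adcy3*, *Adcy8* and *Adcy5*, and in WT cells it was *Adcy1*, *Adcy9*, *Adcy6*, *Adcy7*, *Adcy8*, *Adcy3* and *Adcy5*. No neighbours overlapped in the *Bmal1*-/- or WT order. In the *Clock*-/- order, *Adcy1* and *Adcy6*, *Adcy6* and *Adcy9*, *Adcy9* and *Adcy7*, and *Adcy7* and *Adcy3* overlapped over the libraries, and without *Clock*-/- replicate 2 none did.

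**Figure D3:**
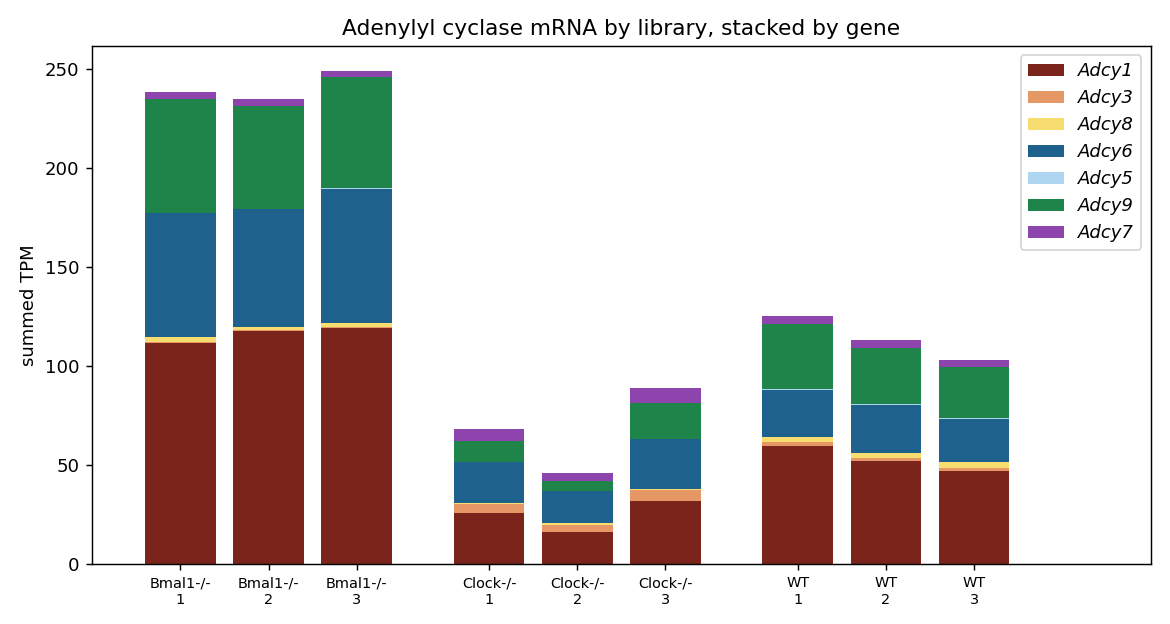
TPM of the 7 members stacked in each of the 9 libraries, 3 each of *Bmal1*-/-, *Clock*-/- and WT cells. The stacks reach 235 to 249 TPM in *Bmal1*-/- cells, 45.9 to 88.5 TPM in *Clock*-/- cells and 103 to 125 TPM in WT cells, and *Adcy1*, *Adcy6* and *Adcy9* fill most of each.

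The summed level of the family was 240.7 ± 7.35 TPM in *Bmal1*-/- cells, 67.5 ± 21.3 TPM in *Clock*-/- cells and 114 ± 11.2 TPM in WT cells (SD, n = 3 each). The libraries of the 3 lines did not overlap, at 238, 235 and 249 TPM in *Bmal1*-/- cells, 68.0, 45.9 and 88.5 TPM in *Clock*-/- cells and 125, 113 and 103 TPM in WT cells. The calcium-stimulated members made up 49.2 ± 1.52% of the sum in *Bmal1*-/- cells, 44.2 ± 1.22% in *Clock*-/- cells and 50.3 ± 0.820% in WT cells. *Adcy1* alone made up 48.2% of the sum in *Bmal1*-/- cells, 36.0% in *Clock*-/- cells and 46.3% in WT cells. Within that group, *Adcy3* made up 0.130% of the sum in *Bmal1*-/- cells, 7.10% in *Clock*-/- cells and 1.69% in WT cells. The calcium-inhibited members, in effect *Adcy6*, held 26.4 ± 0.950% in *Bmal1*-/- cells, 31.5 ± 3.85% in *Clock*-/- cells and 20.8 ± 1.34% in WT cells. *Adcy9* held 22.9 ± 1.09% in *Bmal1*-/- cells, 15.6 ± 4.58% in *Clock*-/- cells and 25.4 ± 0.649% in WT cells, and *Adcy7* held 1.49 ± 0.142%, 8.69 ± 0.247% and 3.37 ± 0.0659% in the same lines. These shares are of mRNA in bulk cells, where fewer cells with a transcript and less transcript per cell cannot be told apart.

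Of the adenylyl cyclases outside this list, *Adcy2*, a form stimulated by beta and gamma subunits, was at 2.44, 2.78 and 2.23 TPM in *Bmal1*-/- cells, 5.26, 5.80 and 7.15 TPM in *Clock*-/- cells and 5.46, 5.43 and 5.33 TPM in WT cells. It fell in *Bmal1*-/- cells at -0.88 on the log2 scale (adjusted p = 3.0e-04), and in *Clock*-/- cells its log2 fold change was 0.13 (adjusted p = 0.453). *Adcy10*, the soluble cyclase, had at most 5 reads in any library. *Adcy4* was not found by its symbol among the 20599 genes.

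The genes whose gene-centred log2(TPM + 1) came closest to each called member over the 9 libraries are given by their root mean square difference. For *Adcy1* these were *Glis3*, a transcription factor of β cells, at 0.12, *Heg1* at 0.14 and *Whrn* at 0.14, beside a root mean square of 0.95 for *Adcy1* itself. For *Adcy3* they were *Clmn* at 0.09, *Hacd4* at 0.10 and *Armh4* at 0.11, beside 0.86 for *Adcy3*. For *Adcy6* they were *Lipa*, the lysosomal acid lipase, at 0.05, *Abca7* at 0.08 and *Erf* at 0.09, beside 0.73. For *Adcy8* they were *Abcb4* at 0.08, *Nek2* at 0.10 and *Man1a* at 0.12, beside 0.48. For *Adcy9* the closest of all tested genes was *Adcy1* at 0.22, ahead of *Insrr*, a receptor of the insulin receptor family, at 0.25 and *Tnr* at 0.26, beside 1.04. These genes were picked for their likeness, so it carries no test.

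**Figure D4:**
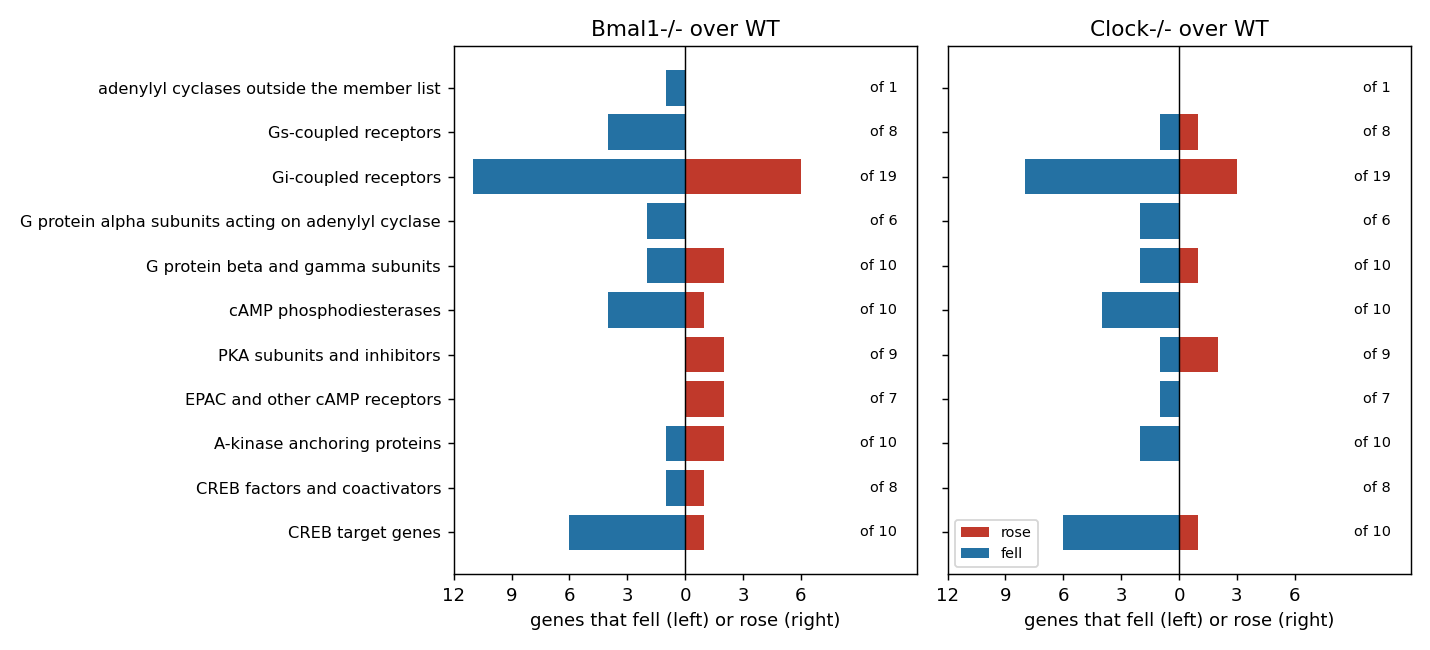
Number of genes that fell (blue, to the left) or rose (red, to the right) at an adjusted p under 0.01 in 11 lists around the adenylyl cyclases, in *Bmal1*-/- cells at left and *Clock*-/- cells at right, with the number tested beside each list. CREB target genes and Gi-coupled receptors have 6 and 11 falls in *Bmal1*-/- cells and 6 and 8 in *Clock*-/- cells.

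The rest of the cAMP pathway was taken from 11 lists with 98 genes tested, and changes of single genes in them are log2 fold changes of TPM + 1 over WT. In *Bmal1*-/- cells 17 rose and 32 fell, beside 18.4% and 21.0% of all genes tested, and in *Clock*-/- cells 8 rose and 27 fell, beside 9.50% and 14.4% of all genes tested. The median log2 fold change of the 98 genes was -0.16 in *Bmal1*-/- cells and -0.21 in *Clock*-/- cells, against -0.04 and -0.02 over all genes tested.

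Upstream of the cyclases, 4 of 8 receptors coupled to the stimulatory G protein fell in *Bmal1*-/- cells and none rose. *Gipr*, the receptor of the incretin GIP, was at 8.38, 11.4 and 9.12 TPM in *Bmal1*-/- cells and 33.4, 29.3 and 30.4 TPM in WT cells (log2 fold change -1.60, adjusted p = 6.2e-06). The adenosine receptor *Adora2a* fell in both lines, with log2 fold changes of -2.37 in *Bmal1*-/- cells and -0.84 in *Clock*-/- cells (adjusted p = 9.6e-06 and 0.00928), and was 1 of 8 to fall in *Clock*-/- cells. *Vipr2*, a receptor of vasoactive intestinal peptide, was the only one of the 8 to rise in *Clock*-/- cells, where it was at 10.2, 9.09 and 13.6 TPM against 2.84, 4.36 and 3.60 TPM in WT cells (log2 fold change 1.37, adjusted p = 2.6e-04). It was also 1 of the 4 that fell in *Bmal1*-/- cells, where it was at 1.90, 1.54 and 2.17 TPM (log2 fold change -0.67, adjusted p = 0.00958).

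Of 19 receptors coupled to the inhibitory G protein, 6 rose and 11 fell in *Bmal1*-/- cells, and 3 rose and 8 fell in *Clock*-/- cells. *Gabbr2*, a subunit of the GABA-B receptor, was at 1.16, 0.998 and 1.25 TPM in *Bmal1*-/- cells, 6.04, 3.68 and 7.10 TPM in *Clock*-/- cells and 69.7, 70.2 and 57.5 TPM in WT cells. Its log2 fold change was -4.96 in *Bmal1*-/- cells and -3.37 in *Clock*-/- cells (adjusted p = 5.3e-08 and 9.6e-07). The delta opioid receptor *Oprd1* fell in both lines, to -2.90 in *Bmal1*-/- cells and -3.38 in *Clock*-/- cells on the log2 scale (adjusted p = 3.7e-07 and 1.9e-07). The alpha-2A adrenergic receptor *Adra2a*, which holds back insulin release, rose by 0.60 in *Bmal1*-/- cells and by 0.60 in *Clock*-/- cells (adjusted p = 5.3e-04 and 8.8e-04), and the galanin receptor *Galr1* rose by 0.70 and by 0.60 (adjusted p = 2.0e-04 and 9.5e-04). *Ffar2*, a receptor of short-chain fatty acids, and the serotonin receptor *Htr1d* rose in *Bmal1*-/- cells by 0.87 and 0.77 (adjusted p = 2.3e-04 and 0.00403).

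Among 6 G protein alpha subunits, 2 fell and none rose in either knockout. *Gnas*, the stimulatory subunit that activates the cyclases, was at 541, 496 and 499 TPM in *Bmal1*-/- cells, 233, 198 and 228 TPM in *Clock*-/- cells and 789, 758 and 767 TPM in WT cells. It fell in both lines, with log2 fold changes of -0.59 in *Bmal1*-/- cells and -1.81 in *Clock*-/- cells (adjusted p = 9.8e-05 and 1.1e-07), and the knockouts differed by 1.22 (adjusted p = 9.5e-07). The inhibitory subunit *Gnai3* fell in *Bmal1*-/- cells at -0.59 and another, *Gnai1*, fell in *Clock*-/- cells at -0.74 (adjusted p = 4.7e-04 and 7.4e-04). Of 10 beta and gamma subunits, 2 rose and 2 fell in *Bmal1*-/- cells, where *Gng12* fell at -1.81 (adjusted p = 2.2e-06) and *Gnb5* rose by 0.57 (adjusted p = 8.8e-04). In *Clock*-/- cells 1 rose and 2 fell, and *Gng4* rose by 0.75 (adjusted p = 2.5e-04).

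Of 10 phosphodiesterases, the enzymes that break cAMP down, 1 rose and 4 fell in *Bmal1*-/- cells, and none rose and 4 fell in *Clock*-/- cells. *Pde1c*, itself activated by calcium and calmodulin, was at 8.24, 10.4 and 10.04 TPM in *Bmal1*-/- cells and 38.6, 33.8 and 30.2 TPM in WT cells (log2 fold change -1.73, adjusted p = 1.6e-05), and *Pde10a* fell there at -1.76 (adjusted p = 2.2e-05). *Pde1b*, of the same calcium-activated class, rose in *Bmal1*-/- cells by 0.71 (adjusted p = 2.0e-04). In *Clock*-/- cells *Pde4c* fell at -1.52 and *Pde8a* at -0.88 (adjusted p = 9.0e-05 and 5.4e-04).

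Downstream, 2 of 9 genes for protein kinase A subunits and inhibitors rose in *Bmal1*-/- cells and none fell. Both encode catalytic subunits, *Prkacb* at 136, 149 and 153 TPM in *Bmal1*-/- cells against 78.8, 75.1 and 68.7 TPM in WT cells (log2 fold change 0.97, adjusted p = 7.7e-05) and *Prkaca*, up by 0.40 (adjusted p = 0.00178). In *Clock*-/- cells 2 rose and 1 fell, the regulatory subunits *Prkar1a* at 0.27 and *Prkar1b* at -0.50 among them (adjusted p = 0.00978 and 5.7e-04). After subtraction of its chromosome's median, *Prkar1a* was no longer called in *Clock*-/- cells (0.21, adjusted p = 0.019) and was lower in *Bmal1*-/- cells (-0.24, adjusted p = 0.00701). Of 7 EPAC and other cAMP receptor genes, the channel gene *Hcn2* rose by 1.01 and *Bves* by 0.52 in *Bmal1*-/- cells (adjusted p = 1.1e-05 and 0.00174), and *Popdc3* fell at -0.62 in *Clock*-/- cells (adjusted p = 0.0064). Of 10 anchoring proteins of the kinase, 2 rose and 1 fell in *Bmal1*-/- cells, with *Akap1* up by 1.09 (adjusted p = 1.7e-04), and none rose and 2 fell in *Clock*-/- cells, with *Akap8* down at -1.64 (adjusted p = 2.2e-06).

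At the end of the pathway, 1 of 8 CREB factors and coactivators rose in *Bmal1*-/- cells, *Crtc2* at 0.55, and 1 fell, *Crem* at -1.79 (adjusted p = 7.0e-04 and 1.0e-06), while in *Clock*-/- cells 0 of the 8 passed the limma test and 3 had an unadjusted p under 0.05. Of 10 genes known as CREB targets, 1 rose and 6 fell in each knockout, with a median log2 fold change of -1.19 in *Bmal1*-/- cells and -0.65 in *Clock*-/- cells. *Nr4a1*, an immediate early gene, was at 4.67, 4.11 and 5.45 TPM in *Bmal1*-/- cells, 32.4, 35.0 and 37.6 TPM in *Clock*-/- cells and 90.1, 92.4 and 97.0 TPM in WT cells. Its log2 fold change was -4.04 in *Bmal1*-/- cells and -1.39 in *Clock*-/- cells (adjusted p = 4.5e-09 and 5.0e-06), and that of its relative *Nr4a3* was -2.42 and -1.98 (adjusted p = 4.4e-06 and 2.8e-05). *Dusp1* rose in *Bmal1*-/- cells by 0.63 and *Ppargc1a* in *Clock*-/- cells by 0.70 (adjusted p = 0.00177 and 0.00249). Both knockouts were set against the same WT libraries, so the counts of the 2 comparisons are not independent of each other.

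THRAP3 peaks overlapped the body of 3 of the 7 members in *Bmal1*-/- replicate 1 and of 4 in *Bmal1*-/- replicate 2. The numbers were 0 in WT replicate 1 and 2 in WT replicate 2, and the shares of all genes tested are given below. Those shares cover genes that passed the TPM filter, which *Adcy5*, counted among the 4, did not. *Adcy1* had 3 peaks in *Bmal1*-/- replicate 1, 4 in *Bmal1*-/- replicate 2, none in WT replicate 1 and 2 in WT replicate 2, and *Adcy9* had 2, 2, none and 1 in the same order. *Adcy8* had 2 peaks in each *Bmal1*-/- list and none in the WT lists, and *Adcy5* had 1 peak, in *Bmal1*-/- replicate 2. *Adcy3*, *Adcy6* and *Adcy7* had none. By the positions given above they are the shortest genes of the family, and gene length was not taken into account. The lists differ in size, at 12949 and 12226 peaks in *Bmal1*-/- samples and 808 and 6128 in WT samples, and 35.9% and 31.8% of all genes tested had a peak in the gene body in *Bmal1*-/- lists, against 2.68% and 17.7% in WT lists. Of the 19 peaks, 18 were intronic. The other lay within 1 kb of the start of *Adcy9*, over an exon 274 bases downstream of the start (chr16:4420102-4420346), and was listed in *Bmal1*-/- replicate 2 alone at 11.4 normalized tags (tags scaled to 10000000 per sample) and 4.35-fold over input, close to the lowest fold the peak caller let through. The share of all genes tested with a peak within 1 kb of the start was 30.2% and 25.0% in *Bmal1*-/- lists and 1.16% and 11.5% in WT lists.

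Among the members, only introns of *Adcy1* held sites listed in 3 of the 4 lists with an overlap of all 3 peaks. The site with the higher fold over input in each of these lists is centred 32605 to 32676 bases downstream of the start. It had 7.85 and 10.7 normalized tags in *Bmal1*-/- replicates 1 and 2 and 11.6 in WT replicate 2, at 18.0, 24.6 and 14.4-fold over input. The median tag numbers of these lists were 12.6 and 12.0 in *Bmal1*-/- replicates 1 and 2 and 10.1 in WT replicate 2, so that the peak lay below the median in both *Bmal1*-/- lists and above it in the WT list. The 163 bases common to the 3 peaks, chr11:7096054-7096216 on the plus strand of GRCm38.p6, are printed for this higher fold over input. None of the 3 motifs searched in the promoters was in them, and the build marks 41 of them as repeats or low-complexity sequence.
Adcy1 intron: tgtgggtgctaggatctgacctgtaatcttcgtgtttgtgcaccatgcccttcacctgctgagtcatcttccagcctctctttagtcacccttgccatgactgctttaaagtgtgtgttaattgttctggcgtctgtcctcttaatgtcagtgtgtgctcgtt
Another intronic *Adcy1* site, centred 58765 to 58853 bases downstream, was also in 3 lists, at 16.5 and 11.4 tags in *Bmal1*-/- replicates 1 and 2 and 8.54 in WT replicate 2, with 6.31, 4.35 and 10.6-fold over input. All differences between lists here were left without a test.

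Across the 9 RNA libraries, depth ranged from 0.786 to 1.45 of that of WT replicate 1. Genes listed at 0 numbered 2189 to 2691 in *Bmal1*-/-, 791 to 1010 in *Clock*-/- and 687 to 905 in WT libraries, and log values correlated at 0.976 to 0.993 within a line and at 0.918 to 0.952 between lines, across genes. *Arntl*, the annotated name of *Bmal1*, was at 3.32 to 3.52 TPM in *Bmal1*-/-, 10.6 to 16.2 TPM in *Clock*-/- and 3.52 to 4.22 TPM in WT cells, and *Clock* was at 30.9 to 36.5, 28.0 to 46.6 and 40.9 to 49.7 TPM in these lines. TPM counts the whole gene, of which the removed exons are a small part, so these levels do not check the deletions. Of 13 β-cell markers, 12 reached a mean of 1 TPM. The list summed to 41523 to 44132 TPM in *Bmal1*-/-, 35130 to 40803 TPM in *Clock*-/- and 56657 to 59064 TPM in WT cells. *Ins2* and *Iapp* made up most of these sums, and single markers moved in different directions. In *Clock*-/- cells *Ins1* was at a mean of 61.0 TPM against 2307 TPM in WT cells, and *Slc2a2* at 6.80 against 109 TPM. *G6pc2* was at 2853 against 1450 TPM, and *Nkx6-1* at 505 against 265 TPM. Of 12 acinar, duct and stromal markers, 6 were among the deposited genes and 1 reached a mean of 1 TPM. They summed to at most 8.95 TPM in any library.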

How the data were processed

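RNA values are the TPM that the authors deposited for 9 libraries, made from STAR 2.5.0 alignments to mm10 counted with featureCounts 1.5.3 per the labels. The deposited comparison tables hold the fold changes and p-values of the authors' DESeq2 1.22.1 fits, which were not used, and only their mean normalized signal was used, to check whole reads (within 0.01 of an integer) recovered from TPM steps. limma 3.58.1 in R 4.3.3 was fitted to log2(TPM + 1) with 3 group means and a variance trend over 15031 genes at 1 TPM or more in at least 3 libraries, with Benjamini-Hochberg adjustment. The study's methods test counts, which TPM replaced here. Depth limits precision most for *Adcy5*, at 0 to 20 reads per library.

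The members and lists were chosen with earlier results of these data known. The text names the members, other adenylyl cyclases, targeted genes, up to 2 rises and 2 falls per list and knockout among called genes of at least 5 TPM in the higher group, of which a selection is described, and the 3 genes most like each member called with an absolute log2 fold change above 1. *Gcg*, *Sst*, *Ghrl*, *Irx2*, *Ins1*, *Ins2*, *Iapp*, *Slc2a2*, *G6pc2* and *Nkx6-1* are markers, and *Cenpo* and *Gm6142* are overlapping genes.

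For THRAP3, the authors deposited 1 HOMER peak list per sample from Bowtie2 2.2.4 alignments, with a tag signal scaled to 10000000 tags and the fold over input. Gene bodies and starts are of GENCODE on GRCm38, and sequences are RefSeq GRCm38.p6. Scripts ran in Python 3.11.15. Alternatives were the pseudocount, filter, normalization, chromosome or 10 Mb medians, trend, groups fitted, replicate block and leaving out each library. Splicing, eCLIP and ChIP-seq inputs were not analysed here, nor were protein sequences of the members, and 1 planned pathway list is not reported here.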

Additional observations from a re-analysis of the deposited data

Results flagged for a closer look

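*Adcy1* was picked out because its calls in the knockouts went in opposite directions, up in *Bmal1*-/- cells and down in *Clock*-/- cells against the same WT libraries, and the test between the knockouts gave a log2 difference of 2.26 (limma, adjusted p = 1.0e-05) with all 3 *Bmal1*-/- libraries above all 3 *Clock*-/- libraries. *Adcy3* was picked out for the reverse pair of calls, with a log2 difference of -2.09 between *Bmal1*-/- and *Clock*-/- cells (adjusted p = 2.2e-06) and every *Bmal1*-/- library below every *Clock*-/- library. Dixon's test of a single outlying sample was not run on these groups of 3 libraries.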

How the results depend on the processing

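Counts of called members were 3, 4 and 5 for *Bmal1*-/- over WT, *Clock*-/- over WT and *Bmal1*-/- over *Clock*-/-. With at least 5 TPM required in 3 libraries, *Adcy3*, *Adcy7* and *Adcy8* were not tested. Only *Adcy1*, *Adcy6* and *Adcy9* were left, and the counts were 2, 2 and 3. Leaving out each library in turn gave 3 to 4, 3 to 5 and 5 to 6 called members, and 0 to 4 overlapping neighbours in the orders of level (4 with all libraries). No member was left with a peak within 1 kb of its start when a fold over input of at least 8 was required (0 against 1). Of 351 values of single members under an alternative, 5 changed sign, and none of these had been called. In *Bmal1*-/- cells *Adcy7* was at 0.16 and *Adcy8* at 0.050 with quantile normalization, and *Adcy8* was at 0.11 with the 10 Mb median subtracted, while in *Clock*-/- cells *Adcy6* was at 0.10 with the chromosome median subtracted and at 0.16 with the 10 Mb median subtracted. The *Clock*-/- call of *Adcy9* was also lost without the variance trend (adjusted p = 0.0102) and with only *Clock*-/- and WT libraries fitted (adjusted p = 0.0213). A fit with no filter and 0.1 added, chosen after seeing the data, gave *Adcy5* at -1.57 in *Bmal1*-/- cells and -2.01 in *Clock*-/- cells (adjusted p = 0.0028 and 0.0012).

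Residuals of same-numbered libraries of different lines around their group means had correlations of -0.21 to 0.07 across genes. Those of other-numbered libraries had -0.16 to 0.21. Equal replicate numbers were therefore not treated as pairs, though these values cannot show how the libraries were made. With a replicate block the counts were 3, 4 and 5, and no call of a member changed. Low depth limits *Adcy5*, *Adcy3* and *Adcy8*.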
